A study of Mus musculus with 46 samples.

Results

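The genes described here are 41 markers of Kupffer cells, macrophages and leukocytes, followed in the liver of mice kept on a lipid-rich diet (LD) or a carbohydrate-rich diet (CD). They were taken by symbol from a list of known cell-type markers in 9 groups: 8 resident Kupffer cell genes, 3 chains of complement C1q, 7 pan-macrophage genes, 4 genes of lipid-associated macrophages, 5 myeloid integrins and pattern receptors, 4 Fc receptors and ITAM adaptors, 4 MHC class II genes, 2 pan-leukocyte genes and 4 lymphocyte genes. All 41 were found among the 25494 gene rows of the RNA-seq table, and all 41 were among the 13494 rows that passed the filter on low counts. The animals were male C57BL/6 mice, bought at 5 weeks of age and given chow for 1 week, and then fed LD, with 60% of calories from lipid, or CD, with 70% of calories from carbohydrate, for up to 20 weeks. The labels name LD as the high fat and CD as the low fat diet, and name no genetic change in either group. Liver RNA, depleted of ribosomal RNA, was sequenced from 5 mice per diet. H3K27ac, a histone mark of active enhancers and promoters, was mapped by ChIP-seq in 3 livers per diet. The transcription factors Hnf4α and C/EBPα were mapped by ChIP-seq in 2 samples per diet. Promoter contacts were mapped by promoter capture Hi-C (PCHi-C) in 2 samples per diet that were pooled. Mice are named by diet and replicate number, and the numbers of the RNA-seq and ChIP-seq samples are not stated to mark the same animals.

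Kupffer cells are the macrophages that live in the liver sinusoids, where they take up particles, bacteria and old red cells from the blood. In a liver that stores fat for a long time, monocytes can enter from the blood and become macrophages, and some of these take on a lipid-associated state marked by Trem2 and Gpnmb. Macrophages and dendritic cells also show peptides to T cells on MHC class II molecules, and sense antibodies through Fc receptors that signal through adaptors with an ITAM motif.

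The RNA-seq libraries held 31707963 to 39012699 counts. The label of liver tissue was checked against hepatocyte markers: Alb, Ttr, Apoa1, Cps1, Cyp2e1 and Fgb together made up 89630 to 104800 TPM (transcripts scaled to a common total per library) in each library. Of these 6 genes, 2 were called lower on LD (Cps1 and Fgb) and none higher. Of 7 stellate cell markers, 3 were called higher on LD, namely Col3a1 (log2 fold change 1.44), Col1a1 (1.60) and Dcn (0.38), and the summed TPM of the list ran from 316.5 to 519.9 on LD and from 260.2 to 306.4 on CD. Of 7 endothelial markers, only Lyve1 was called (higher, log2 fold change 0.90), and of 5 cholangiocyte markers none was called. The adipocyte genes Lep and Plin1 had no counts in any library and Adipoq averaged 0.0112 CPM (counts scaled to library size) on LD and 0.0406 CPM on CD, while Fabp4, which macrophages and endothelial cells also express, was called higher on LD (log2 fold change 1.41). Of 5 erythroid markers 2 were tested and none was called, and of 4 platelet markers Pf4 was called higher (1.19). The part of these other cells in the results below was not tested.

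LD mouse 2 stood apart. It had the highest value of the 5 LD mice for 33 of the 41 genes and the lowest for none. Among the CD mice, mouse 1 was highest for 25 genes and mouse 4 was lowest for 28. Over the 41 genes, the ratio of the highest to the lowest mouse was greater on LD for 32 and on CD for 9, with medians of 2.32 on LD and 1.81 on CD. Without LD mouse 2, 19 of the 20 calls below were kept, the median log2 fold change of the 41 genes was 0.47 in place of 0.63, and 34 rather than 36 of them were positive. The values without it are given beside the marker genes whose direction or call it moved.

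Of the 41 genes, 20 were called higher on LD and none was called lower, with edgeR's quasi-likelihood test at a Benjamini-Hochberg adjusted p under 0.05 and a fold change above 1.2. Over all genes tested, 13.8% were called higher on LD (1859) and 11.1% lower (1498). The 41 genes were chosen with earlier results of these data known, which limits this comparison. With limma on log2(TPM + 1) in place of counts, 2227 genes were called higher and 740 lower. Of the 41, 20 were called higher in that fit too, 17 of them shared with the 20 called on counts. The median log2 fold change of the 41 genes was 0.63, against -0.0019 for all genes tested, and 36 of the 41 had a positive value. For 16 genes the 5 LD mice all lay above the 5 CD mice, and for none did all CD mice lie above all LD mice, where these shares were 10.2% and 8.35% over all genes tested. The groups of genes differed in their counts: 0 of 8 resident Kupffer cell genes and 0 of 3 C1q chains were called, but 3 of 4 lipid-associated genes, 4 of 4 Fc receptors and adaptors, 4 of 4 MHC class II genes and 4 of 5 integrins and pattern receptors. Of the other groups, 2 of 7 pan-macrophage genes, 2 of 2 pan-leukocyte genes and 1 of 4 lymphocyte genes were called higher. The count of integrins and pattern receptors fell to 2 of 5 without LD mouse 3 or without CD mouse 1, 3, 4 or 5. C1qb, at an adjusted p of 0.0557, was called higher in 6 alternatives. In bulk tissue, fewer cells of a type and less RNA per cell cannot be told apart.

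**Figure D1:**
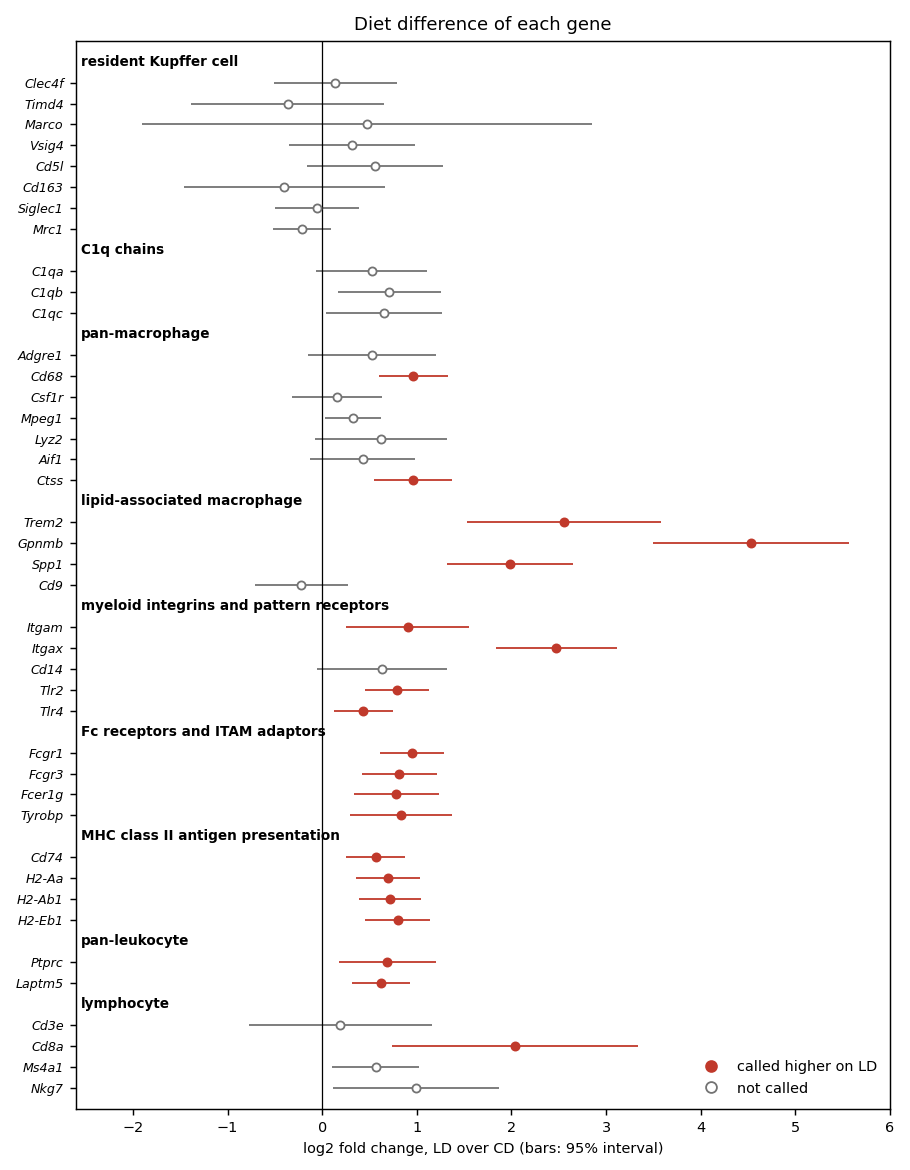
The log2 fold change of LD over CD for each of the 41 genes, by group, with its 95% interval from edgeR over 5 mice per diet. Filled red points are the 20 genes called higher on LD, none of which is a resident Kupffer cell gene or a C1q chain, and the highest value is that of Gpnmb, at 4.53.

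H3K27ac was read as the share of each gene and 20 kb to either side that the peaks of a sample covered. This share lay higher in all 3 LD samples than in all 3 CD samples for 27 of the 41 genes, and higher in all 3 CD samples for none. Over all 25334 genes with a position, 15.8% had all LD samples above and 4.01% all CD samples above. The LD samples had 53821 to 56987 peaks covering 149.8 to 160.4 Mb, and the CD samples 48156 to 51608 peaks covering 139.7 to 145.4 Mb. Of the 19139 genes with any peak in their window, 20.9% had all LD samples above, against 27 of the 39 marker genes with any peak. The windows of the C1q chains overlap each other, as do those of H2-Aa, H2-Ab1 and H2-Eb1 and those of Itgam and Itgax, so the 41 genes stand for 36 separate stretches of the genome, of which 22 hold a gene with all LD samples above. With 3 samples against 3, an exact two-sided permutation test of a single gene cannot go below p = 0.1.

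For the promoters printed with their genes, RefSeq (GRCm38.p6) gives the 250 bases before the gene start. Each stretch was found at 1 place near its gene in mm9, the build of the peaks, and its mm9 position is the one printed. Capitals mark 3 short motifs on either strand: GAGGAA, a core bound by PU.1 and other ETS factors, TGANTCA, the core of AP-1 sites, and CCAAT, the core bound by NF-Y. Promoters were listed for 31 of the 41 genes, in 34 entries. GAGGAA was found in 19 of these entries (55.9%) and in 23.3% of all 32851 mouse promoter entries of the same length. TGANTCA was in 3 of the 34 (8.82%) and in 6.75% of all, and CCAAT in 13 (38.2%) and in 33.8% of all. Each motif was searched separately, matches that share bases were each counted, and a match is a description of letters only. Positions are those of the first base of a match, in bases before the gene start.

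The resident Kupffer cell genes showed no diet difference that passed the test. Their log2 fold changes ran from -0.40 (Cd163) to 0.56 (Cd5l), with a median of 0.04, and 4 of the 8 were positive. The median was -0.25 without LD mouse 2, with 2 of the 8 positive, and 0.19 without LD mouse 5, with 5 of the 8 positive, and none was called in either case. Cd5l, a secreted scavenger protein of tissue macrophages, had the highest level per length of this group, at 119.0 to 350.8 TPM on LD and 89.5 to 170.5 TPM on CD. Its CPM in LD mice 1 to 5 was 234.3, 386.1, 197.7, 165.4 and 117.8, and in CD mice 1 to 5 it was 204.8, 169.2, 117.6, 99.5 and 158.0. The diets overlapped, with LD mice 3, 4 and 5 inside the range of the CD mice (edgeR, log2 fold change 0.56 ± 0.32 (SE), adjusted p = 0.231), and the log2 fold change of Cd5l was 0.26 without LD mouse 2 and 0.72 without LD mouse 5. Clec4f, the C-type lectin that among mouse cells is typical of Kupffer cells, had 164.8, 260.1, 164.8, 132.7 and 74.8 CPM in LD mice 1 to 5. The CD mice had 189.2, 154.3, 120.9, 112.6 and 147.3 CPM. The LD mice thus held both the highest and the lowest value, and the 95% interval of the log2 fold change of 0.14 ran from -0.51 to 0.79. Without LD mouse 2 the log2 fold change of Clec4f was -0.11, and without LD mouse 5 it was 0.32.

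For each of these 8 genes too the ratio of the highest to the lowest mouse was greater on LD, from 1.76 for Mrc1 to 34.7 for Marco, than on CD. Timd4, a receptor for phosphatidylserine on dead cells that marks long-lived Kupffer cells, had 10.1, 12.7, 7.11, 6.28 and 1.57 CPM in LD mice 1 to 5, and 12.2, 11.9, 6.48, 6.29 and 11.7 CPM in the CD mice. Cd163, the scavenger receptor for haemoglobin bound to haptoglobin, had 26.9, 31.6, 18.5, 13.1 and 3.94 CPM on LD and 29.5, 32.8, 17.7, 24.4 and 20.1 CPM on CD. For both genes LD mouse 5 lay below every other mouse of either diet, and the diets overlapped (log2 fold change -0.36 ± 0.45, adjusted p = 0.595 for Timd4). The log2 fold changes without LD mouse 2 were -0.64 for Timd4 and -0.67 for Cd163 (-0.40 with all mice), and without LD mouse 5 they were -0.10 and -0.14. Marco, a scavenger receptor for bacteria, varied most of the 41 genes: its CPM was 43.0, 71.7, 6.08, 5.94 and 2.07 in LD mice 1 to 5, so that the highest LD mouse had 34.7 times the lowest. The CD mice had 25.7, 22.1, 5.195, 3.33 and 36.6 CPM. LD mice 1 and 2 and CD mice 1, 2 and 5 lay at 22.1 CPM and above and the other 5 mice at 6.08 CPM and below, and the sign of its log2 fold change of 0.48 ± 1.04 turned without LD mouse 2, to -0.37.

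Vsig4, the complement receptor CRIg, had log2 fold change 0.32 ± 0.30, with 0.048 left without LD mouse 2 and 0.45 without LD mouse 5. Siglec1, a sialic acid receptor, and Mrc1, the mannose receptor, which sinusoidal endothelial cells also express, had log2 fold changes of -0.06 ± 0.20 and -0.21 ± 0.14. For Mrc1 the 95% interval was -0.52 to 0.10, and without LD mouse 2 its value was -0.34 (adjusted p = 0.0512) and that of Siglec1 -0.16, against -0.14 and 0.065 without LD mouse 5. H3K27ac coverage in this group was higher in all LD samples for 3 of the 8 genes: Cd5l (13.2, 20.3 and 18.4% in LD samples 1 to 3, and 4.51, 3.38 and 7.52% in CD samples 1 to 3), Vsig4 (means 8.04% and 0.46%) and Mrc1 (means 11.7% and 9.12%). No peak lay within 20 kb of Marco in any sample, and the LD samples had none near Timd4. At Clec4f the coverage was 0, 19.4 and 15.9% in LD samples 1 to 3 and 14.4, 11.3 and 16.7% in CD samples 1 to 3, which overlap. Its promoter, shown because the gene defines Kupffer cells, lies at chr6:83606111-83606360 on the minus strand and was under a peak in 2 LD samples and 1 CD sample:
Clec4f: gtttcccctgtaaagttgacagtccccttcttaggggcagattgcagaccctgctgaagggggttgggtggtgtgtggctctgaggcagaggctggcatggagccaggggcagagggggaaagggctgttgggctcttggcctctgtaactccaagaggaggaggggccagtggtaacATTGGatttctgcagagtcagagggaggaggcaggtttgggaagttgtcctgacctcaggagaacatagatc

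The C1q chains, which begin the classical complement pathway and are made by macrophages, moved together from mouse to mouse. C1qc was the highest per length by its mean over the 10 libraries (111.1 TPM, against 109.6 TPM for C1qa, which had the higher median on CD), at 100.7 to 219.7 TPM on LD and 60.01 to 110.9 TPM on CD. Its CPM was 73.8, 125.2, 75.5, 61.5 and 51.6 in LD mice 1 to 5 and 68.9, 54.2, 34.9, 34.5 and 54.1 in CD mice 1 to 5. LD mouse 2 was highest and CD mice 3 and 4 were lowest for all 3 chains, and each chain overlapped between diets. The log2 fold changes were 0.52 ± 0.26 for C1qa, 0.71 ± 0.24 for C1qb and 0.65 ± 0.27 for C1qc, with edgeR adjusted p of 0.172, 0.0557 and 0.106. C1qb was called with DESeq2 (adjusted p = 0.00566), with limma on either TPM scale, with a replicate block, without LD mouse 5 (0.0346) and without CD mouse 1 (0.0435), while C1qa and C1qc were called in none of the alternatives. Without LD mouse 2 the log2 fold changes were 0.29 for C1qa, 0.47 for C1qb and 0.41 for C1qc, with adjusted p of 0.353, 0.0697 and 0.212. The shared stretch of H3K27ac around them was covered more in every LD sample: for the window of C1qa it was 31.2, 37.3 and 34.9% in LD livers and 23.8, 27.02 and 24.7% in CD livers.

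Of 7 pan-macrophage genes, Cd68 and Ctss were called higher on LD and the other 5 were not. Cd68, a lysosomal membrane protein of macrophages, had 14.9, 23.5, 14.2, 16.2 and 13.7 CPM in LD mice 1 to 5 and 11.1, 8.98, 7.10, 6.64 and 8.53 CPM in CD mice 1 to 5. The lowest LD mouse lay above the highest CD mouse, and the log2 fold change was 0.96 ± 0.17 (edgeR, adjusted p = 0.00137). Ctss, cathepsin S, the lysosomal protease that trims the invariant chain of MHC class II, had 71.0, 127.3, 73.8, 70.7 and 84.2 CPM on LD and 53.2, 50.6, 35.3, 34.3 and 46.7 CPM on CD. It did not overlap either (0.96 ± 0.19, adjusted p = 0.00385). The 5 genes that were not called were the surface markers Adgre1 (F4/80, 0.52 ± 0.30) and Csf1r (the receptor for M-CSF, 0.16 ± 0.22), the pore-forming Mpeg1 (0.33 ± 0.14), the lysozyme Lyz2 (0.62 ± 0.31) and the calcium-binding Aif1 (0.43 ± 0.25), all positive. Of these, Mpeg1 (adjusted p = 0.0912) was called in 4 alternatives, one of them without LD mouse 4 (0.03), and Lyz2 in 1, the replicate block (0.0473). These 5 genes, without LD mouse 2, stood at 0.29 (Adgre1), 0.0076 (Csf1r), 0.21 (Mpeg1), 0.34 (Lyz2) and 0.19 (Aif1) on the log2 scale.

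Lyz2 was the highest of these genes per length, at 190.4 to 461.8 TPM on LD and 96.0 to 213.4 TPM on CD, and also of all 41 genes by its mean of 222.1 TPM over the 10 libraries. Its CPM was 133.4, 263.8, 116.1, 111.5 and 143.8 in LD mice 1 to 5 and 132.4, 111.1, 74.5, 55.4 and 125.7 in CD mice 1 to 5, so that CD mice 1 and 5 lay within the range of the LD mice. H3K27ac coverage was higher in all LD samples for 6 of the 7 genes, Aif1 being the exception. At Lyz2 it was 10.7, 11.5 and 6.99% in LD livers and 2.24, 1.79 and 0% in CD livers. At Csf1r, whose RNA was not called, it was 18.3, 30.2 and 19.2% in LD livers and 10.7, 9.76 and 12.5% in CD livers.

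**Figure D2:**
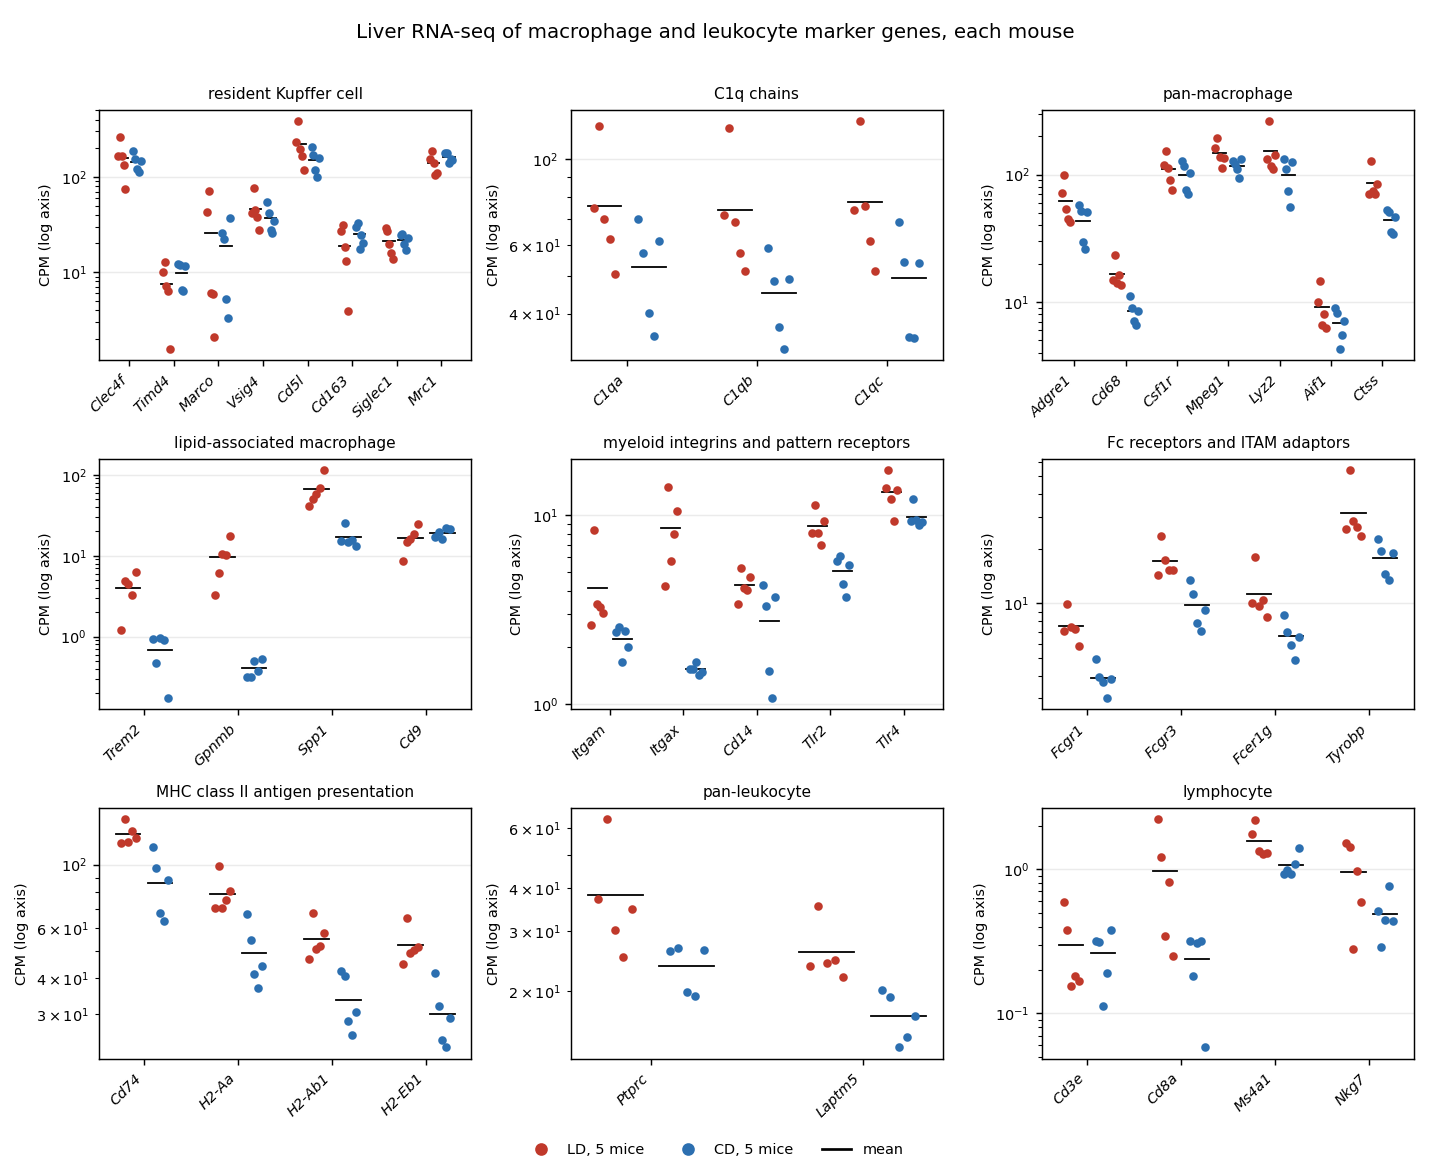
The CPM of each of the 41 genes in each of 5 LD mice (red) and 5 CD mice (blue), on a log axis in each panel, with the mean of each diet as a bar. The diets are apart for Gpnmb, Trem2, Spp1 and Itgax and for all 4 MHC class II genes, and they overlap for every resident Kupffer cell gene.

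Of the 4 lipid-associated macrophage genes, Gpnmb, Trem2 and Spp1 were called higher on LD. Gpnmb, a membrane glycoprotein of lysosome-rich macrophages, had 3.27, 6.04, 10.6, 10.3 and 17.5 CPM in LD mice 1 to 5 and 0.319, 0.313, 0.503, 0.381 and 0.524 CPM in CD mice 1 to 5. Every LD mouse exceeded every CD mouse, at a log2 fold change of 4.53 ± 0.47, or 23.1-fold (edgeR, adjusted p = 0.000107), on 1668 counts in the LD and 70 in the CD libraries. Trem2, the lipid-sensing receptor that signals through Tyrobp, had 1.22, 4.86, 4.47, 3.31 and 6.29 CPM on LD and 0.924, 0.470, 0.950, 0.921 and 0.175 CPM on CD. LD mouse 1 came close to the CD mice but did not reach them, and the log2 fold change was 2.56 ± 0.47 (adjusted p = 0.00242), on 716 and 116 counts. Spp1, the secreted glycoprotein osteopontin, which cholangiocytes also make, had 40.97, 50.6, 58.2, 68.6 and 114.0 CPM on LD and 15.4, 25.2, 14.8, 15.5 and 13.2 CPM on CD, without overlap (1.98 ± 0.30, adjusted p = 0.00133). Per length Spp1 had 46.8 to 141.4 TPM on LD and 14.3 to 27.9 TPM on CD, and was the highest of this group by its mean over the 10 libraries (47.6 TPM).

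Cd9, a tetraspanin that marks these macrophages but is expressed by many cells, was not called. Its CPM was 8.66, 14.7, 15.9, 18.5 and 24.7 in LD mice 1 to 5 and 16.98, 19.6, 16.1, 21.9 and 21.5 in CD mice 1 to 5 (log2 fold change -0.22 ± 0.22, adjusted p = 0.501). The lowest and the highest mouse were both LD mice. Over the alternatives the log2 fold change of Cd9 ran from -0.41 to -0.059, and it was called in none. On CD, Cd9 had the higher level per length, with a median of 30.2 TPM against 16.2 TPM for Spp1. LD mouse 1 was the lowest LD mouse and LD mouse 5 the highest for all 4 genes of this group, Cd9 included.

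The other groups had another order of the LD mice. LD mouse 5 was the lowest LD mouse for 7 of 8 resident Kupffer cell genes and for all 3 C1q chains. LD mouse 2 was the highest for 7 of 8 resident genes, all 7 pan-macrophage genes, all 4 MHC class II genes and all 4 Fc receptors and adaptors, but for none of the 4 lipid-associated genes. As a measure chosen after these values were seen, the CPM of Spp1 was divided by that of Clec4f in each mouse. The ratio was 0.249, 0.195, 0.353, 0.517 and 1.52 in LD mice 1 to 5 and 0.0812, 0.163, 0.122, 0.137 and 0.0895 in CD mice 1 to 5, with no overlap. The ratio of Gpnmb to Clec4f ran from 0.0199 to 0.234 in LD mice and from 0.00168 to 0.00416 in CD mice, and LD mouse 5 was again the highest. That of H2-Aa to Clec4f was 0.429, 0.379, 0.428, 0.565 and 1.08 in the LD mice and 0.355, 0.354, 0.342, 0.328 and 0.300 in the CD mice. The diets were again apart, and LD mouse 5, with the lowest Clec4f of the 10 mice, was again the highest. Spp1, Gpnmb and H2-Aa were apart between the diets without division too, and Clec4f overlapped. Other genes of these groups need not be apart in this ratio. For Trem2, LD mouse 1 had 1.22 CPM beside 164.8 of Clec4f, and CD mouse 3 had 0.950 beside 120.9, a higher ratio. For Cd74, LD mouse 2 had 144.1 CPM beside 260.1, and CD mouse 1 had 114.8 beside 189.2, also higher.

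**Figure D3:**
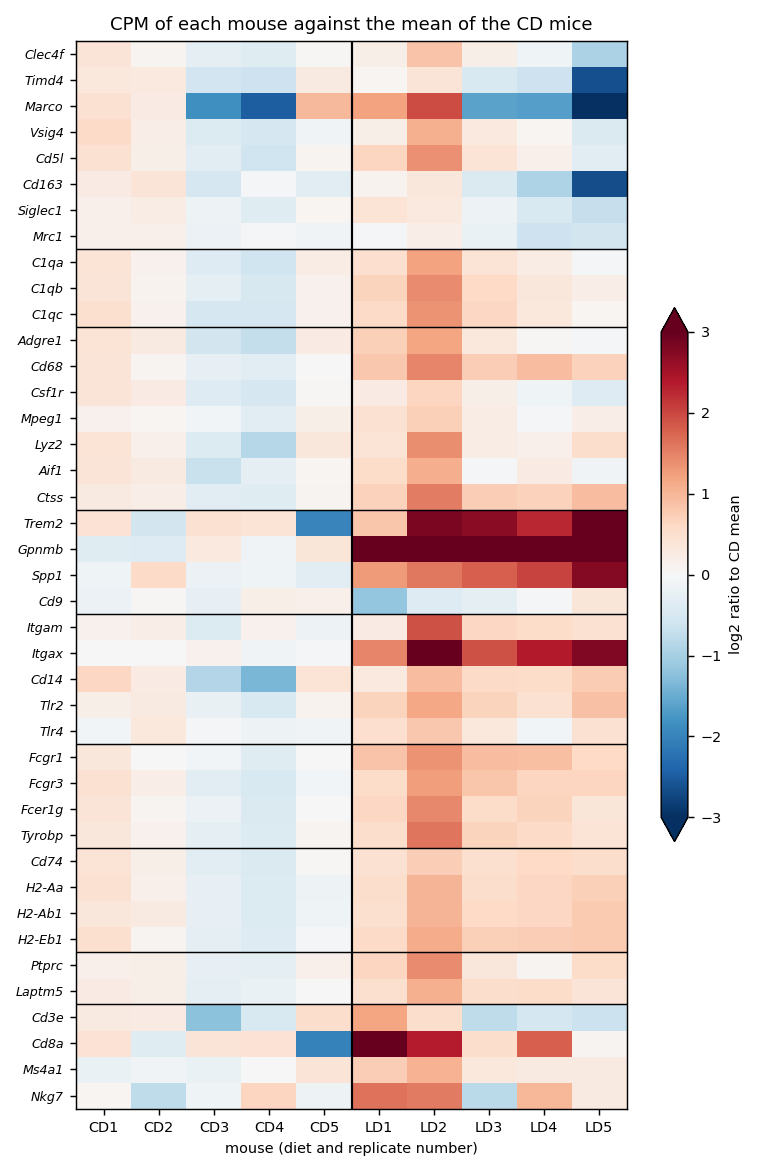
The log2 ratio of the CPM of each mouse to the mean of the 5 CD mice, for each gene (rows, by group) and mouse (columns), with colours limited to 3 in either direction. LD mouse 5 is blue for the resident Kupffer cell genes and dark red for Trem2, Gpnmb and Spp1, and LD mouse 2 lies above the CD mean in every row but that of Cd9.

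H3K27ac coverage was higher in all LD samples for Trem2, Gpnmb and Spp1, and overlapped for Cd9. A peak covered the start of Trem2 in all 3 LD samples and in no CD sample, in a locus of 2400 bp at chr17:48485001-48487400 (mm9). The coverage of the Trem2 window was 3.92, 5.23 and 4.36% on LD and 0% in each CD sample. At Spp1 it was 25.4, 32.8 and 20.9% in LD livers and 19.3, 19.3 and 14.96% in CD livers. At Gpnmb, which had the highest RNA fold change, it was 4.22, 3.89 and 4.86% in LD livers and 2.59, 3.24 and 3.24% in CD livers, and no sample had a peak at its start.

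A peak at the gene start in all 3 LD samples and no CD sample was found for 4 of the 41 genes, Trem2, Spp1, Itgax and Fcgr1, and for 0.446% of all genes with a position. The opposite pattern was found for none of the 41 and for 0.0395% of all genes. The promoters of Trem2 (chr17:48485476-48485725, plus strand) and Spp1 (the upstream of its 2 entries, chr5:104863880-104864129, plus strand) are shown for that reason, and that of Gpnmb (chr6:48986267-48986516, plus strand), with a peak in no sample, for contrast:
Trem2: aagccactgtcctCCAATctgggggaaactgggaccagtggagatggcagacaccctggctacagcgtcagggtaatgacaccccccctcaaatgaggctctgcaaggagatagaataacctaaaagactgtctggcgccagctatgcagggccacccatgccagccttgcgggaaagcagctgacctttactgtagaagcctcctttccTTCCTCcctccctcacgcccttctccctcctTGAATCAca
Spp1: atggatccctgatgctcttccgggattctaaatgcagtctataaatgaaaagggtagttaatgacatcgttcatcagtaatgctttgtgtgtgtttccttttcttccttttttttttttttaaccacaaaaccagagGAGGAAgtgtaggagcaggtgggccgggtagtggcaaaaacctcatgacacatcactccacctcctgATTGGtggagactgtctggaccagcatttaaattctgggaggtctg
Gpnmb: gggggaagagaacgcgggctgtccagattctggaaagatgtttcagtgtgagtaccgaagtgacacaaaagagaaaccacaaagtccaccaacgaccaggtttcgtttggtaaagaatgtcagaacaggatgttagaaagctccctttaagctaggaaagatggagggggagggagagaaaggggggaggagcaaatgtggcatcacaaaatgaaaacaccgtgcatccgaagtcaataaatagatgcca

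The Trem2 promoter holds all 3 motifs, with TGANTCA (as TGAATCA) starting 9 bases, GAGGAA 40 bases and CCAAT 237 bases before the start. That of Spp1 holds GAGGAA at 113 and CCAAT at 46 bases, and that of Gpnmb none of the 3. The other entry for Spp1, which starts further downstream, was under a peak in all 6 samples.

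Among the integrins and pattern receptors, 4 of 5 genes were called higher on LD. Itgax, the integrin CD11c of dendritic cells and lipid-associated macrophages, had 4.22, 14.2, 5.74, 7.98 and 10.5 CPM in LD mice 1 to 5 and 1.53, 1.54, 1.68, 1.43 and 1.49 CPM in CD mice 1 to 5. The CD mice lay within a narrow range and every LD mouse was above it, at a log2 fold change of 2.48 ± 0.29 (edgeR, adjusted p = 0.00015). Itgam, the integrin CD11b of monocytes and neutrophils, had 2.63, 8.36, 3.41, 3.28 and 3.05 CPM on LD and 2.42, 2.56, 1.68, 2.45 and 2.01 CPM on CD. Its diets were only narrowly apart, and LD mouse 2 stood far above the other LD mice (log2 fold change 0.90 ± 0.30, adjusted p = 0.0399), and without that mouse the log2 fold change was 0.475 with the call kept (adjusted p = 0.0479), but the call was lost without LD mouse 3 or any single CD mouse, with adjusted p up to 0.116 over all alternatives.

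Tlr2, a receptor for bacterial lipoproteins, had a level per length of 4.41 to 7.36 TPM on LD and 2.36 to 3.92 TPM on CD, and a higher mean over the 10 libraries than any other gene of this group, although Cd14 had the higher median on CD. In CPM it had 8.04, 11.4, 8.07, 6.98 and 9.31 among LD mice and 5.70, 6.08, 4.36, 3.68 and 5.44 among CD mice. Its diets did not overlap (log2 fold change 0.79 ± 0.16, adjusted p = 0.00257). Tlr4, the receptor for endotoxin, was called with overlap (0.44 ± 0.15, adjusted p = 0.0389), and leaving out LD mouse 1, 2, 3 or 5 or CD mouse 1, 3, 4 or 5 ended that call. Without LD mouse 2 it stood at 0.32 on the log2 scale (adjusted p = 0.0893). Cd14, its co-receptor, was not called (0.63 ± 0.31, adjusted p = 0.159): CD mice 3 and 4 had 1.51 and 1.08 CPM and every other mouse of either diet had 3.32 to 5.24 CPM.

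At Itgax, H3K27ac peaks covered 12.4, 11.8 and 13.1% of the window on LD and 1.96, 2.62 and 3.27% on CD, and at Itgam 15.03, 15.4 and 16.5% on LD and 7.51, 4.80 and 8.35% on CD. The neighbouring windows of these genes overlap. At Tlr2, Tlr4 and Cd14 the diets overlapped. The Itgax promoter, shown because its peak was in all 3 LD samples and no CD sample, lies at chr7:135272814-135273063 on the plus strand, with TGANTCA starting 56 bases and CCAAT 178 bases before the start:
Itgax: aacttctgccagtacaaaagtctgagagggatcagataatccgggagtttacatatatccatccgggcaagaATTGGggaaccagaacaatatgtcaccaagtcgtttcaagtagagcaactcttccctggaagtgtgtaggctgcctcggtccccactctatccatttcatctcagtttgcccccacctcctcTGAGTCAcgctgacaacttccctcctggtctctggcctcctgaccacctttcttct

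All 4 Fc receptor and adaptor genes were called higher on LD. Fcgr1, the high-affinity receptor for IgG, had 7.01, 9.97, 7.39, 7.25 and 5.84 CPM in LD mice 1 to 5 and 4.94, 3.94, 3.69, 3.02 and 3.84 CPM in CD mice 1 to 5 (edgeR, log2 fold change 0.95 ± 0.16, adjusted p = 0.00077). Fcgr3, a low-affinity receptor for IgG, had 14.4, 23.3, 17.4, 15.2 and 15.3 CPM on LD and 13.4, 11.3, 7.79, 7.08 and 9.23 CPM on CD (0.81 ± 0.18, adjusted p = 0.00652). Tyrobp, the adaptor DAP12 of Trem2 and other receptors and the highest of this group per length at 83.8 to 176.5 TPM on LD and 43.4 to 67.8 TPM on CD, had 25.8, 54.0, 28.3, 26.3 and 23.5 CPM on LD and 22.6, 19.3, 14.6, 13.4 and 18.9 CPM on CD (0.83 ± 0.24, adjusted p = 0.0282). For these 3 genes the diets did not overlap, although CD mouse 1 came near the lowest LD mouse for Fcgr3 and Tyrobp, and the call of Tyrobp was lost without CD mouse 2, 3 or 4, with adjusted p up to 0.0912 over all alternatives. Without LD mouse 2 the log2 fold change of Tyrobp was 0.55, and it was still called (adjusted p = 0.0101). Fcer1g, the adaptor of the Fc receptors, was called with 1 LD mouse (8.42 CPM) below the highest CD mouse (8.60 CPM), at 0.78 ± 0.21 (adjusted p = 0.0145).

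Coverage by H3K27ac was higher in all LD samples for Tyrobp alone in this group (31.0, 35.6 and 28.8% on LD and 25.6, 23.7 and 20.5% on CD). The window of Fcer1g was the most covered of the 41 in both diets, with means of 85.0% on LD and 85.7% on CD. The Fcgr1 promoter was under a peak in the 3 LD samples and in no CD sample, although the window as a whole overlapped between diets. It lies at chr3:96097893-96098142 on the minus strand and holds GAGGAA, read on the other strand, starting 55 bases before the start:
Fcgr1: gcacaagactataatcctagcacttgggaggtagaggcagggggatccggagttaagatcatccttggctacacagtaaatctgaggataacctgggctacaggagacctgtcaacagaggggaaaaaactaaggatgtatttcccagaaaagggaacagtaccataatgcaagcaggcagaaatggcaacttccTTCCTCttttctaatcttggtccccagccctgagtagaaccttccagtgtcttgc

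The MHC class II genes rose together, and for all 4 the diets did not overlap. Cd74, the invariant chain that guides class II molecules through the cell and the highest per length of this group, had 119.4, 144.1, 119.6, 130.6 and 124.2 CPM in LD mice 1 to 5 and 114.8, 97.4, 67.8, 63.5 and 88.1 CPM in CD mice 1 to 5. Its log2 fold change was 0.56 ± 0.14 (edgeR, adjusted p = 0.012), and its level ran from 158.7 to 188.5 TPM in LD mice and from 82.3 to 137.6 TPM in CD mice. H2-Aa, the alpha chain of I-A, had 70.7, 98.5, 70.6, 74.9 and 80.7 CPM on LD and 67.1, 54.6, 41.4, 36.9 and 44.2 CPM on CD (0.70 ± 0.16, adjusted p = 0.00688). CD mouse 1 was the highest CD mouse and LD mouse 2 the highest LD mouse for each of the 4 genes.

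H2-Ab1, the beta chain of I-A, had 46.6, 67.8, 50.5, 51.8 and 57.4 CPM on LD and 42.5, 40.6, 28.3, 25.3 and 30.6 CPM on CD (0.71 ± 0.15, adjusted p = 0.00477). H2-Eb1, the beta chain of I-E, had 44.9, 65.2, 48.9, 50.4 and 51.4 CPM on LD and 41.9, 31.9, 24.3, 23.0 and 29.0 CPM on CD (0.80 ± 0.16, adjusted p = 0.00327). Unlike in the resident Kupffer cell genes, LD mouse 5 was the lowest LD mouse for none of the 4. H3K27ac coverage was higher in all LD samples for each gene, with means of 33.3% and 20.4% at H2-Aa, 18.8% and 13.9% at H2-Ab1, 28.0% and 14.3% at H2-Eb1 and 11.6% and 7.79% at Cd74, the first value being LD.

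The H2-Eb1 promoter, shown for the class II group, lies at chr17:34442562-34442811 on the plus strand and was under a peak in 3 LD and 2 CD samples. CCAAT starts 59 and 35 bases before the start, the former on the other strand:
H2-Eb1: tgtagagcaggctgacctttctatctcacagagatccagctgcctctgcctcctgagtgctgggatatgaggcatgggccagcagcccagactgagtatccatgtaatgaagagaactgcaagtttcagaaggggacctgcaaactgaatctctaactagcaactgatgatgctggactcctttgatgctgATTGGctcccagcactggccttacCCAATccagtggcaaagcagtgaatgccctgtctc

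Both pan-leukocyte genes were called higher on LD. Laptm5, a lysosomal protein of blood cells and the higher per length (18.6 to 27.3 TPM on LD and 10.4 to 14.7 TPM on CD), had 23.7, 35.4, 24.2, 24.7 and 21.9 CPM in LD mice 1 to 5 and 20.1, 19.2, 13.7, 14.6 and 16.9 CPM in CD mice 1 to 5, without overlap (edgeR, log2 fold change 0.62 ± 0.14, adjusted p = 0.00605). Ptprc, the phosphatase CD45 found on all leukocytes, had 37.3, 63.8, 30.3, 25.1 and 34.8 CPM on LD and 26.3, 26.7, 19.9, 19.3 and 26.4 CPM on CD. LD mouse 4 lay within the CD range, and the call (0.69 ± 0.23, adjusted p = 0.0485) was lost when LD mouse 1, 3 or 5 or any single CD mouse was left out, with adjusted p up to 0.163 over all alternatives. Without LD mouse 2 it was 0.42 (adjusted p = 0.0333). H3K27ac at Ptprc was higher in all LD samples, at 12.99, 17.5 and 10.6% on LD and 1.97, 2.76 and 3.15% on CD, and 4 loci inside the gene had a peak in every LD sample and in no CD sample.

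The lymphocyte genes had few counts. Cd3e, a chain of the T cell receptor complex, had 54 counts in all LD libraries together and 45 in the CD libraries (0.19 ± 0.45). Cd8a, the CD8 alpha chain of cytotoxic T cells and some dendritic cells, had 2.22, 1.21, 0.341, 0.819 and 0.252 CPM in LD mice 1 to 5 and 0.319, 0.183, 0.307, 0.318 and 0.0582 CPM in CD mice 1 to 5. LD mouse 5 lay within the CD range, and the call (log2 fold change 2.04 ± 0.60, adjusted p = 0.0237) rested on 177 and 40 counts and was lost without CD mouse 2. Nkg7, a granule protein of cytotoxic lymphocytes and the highest per length here (0.64 to 3.53 TPM on LD and 0.65 to 1.72 TPM on CD), had 1.52, 1.44, 0.279, 0.970 and 0.587 CPM on LD and 0.510, 0.287, 0.447, 0.762 and 0.437 CPM on CD, with overlap (0.99 ± 0.41, adjusted p = 0.0867). Ms4a1, the B cell protein CD20, also overlapped (0.57 ± 0.22, adjusted p = 0.0656). Nkg7 was called without LD mouse 3 (adjusted p = 0.0213), and Ms4a1 without CD mouse 5 (0.0434) and with limma on TPM. LD mouse 1 was the highest LD mouse for 3 of these 4 genes. No sample had a peak within 20 kb of Cd8a.

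**Figure D4:**
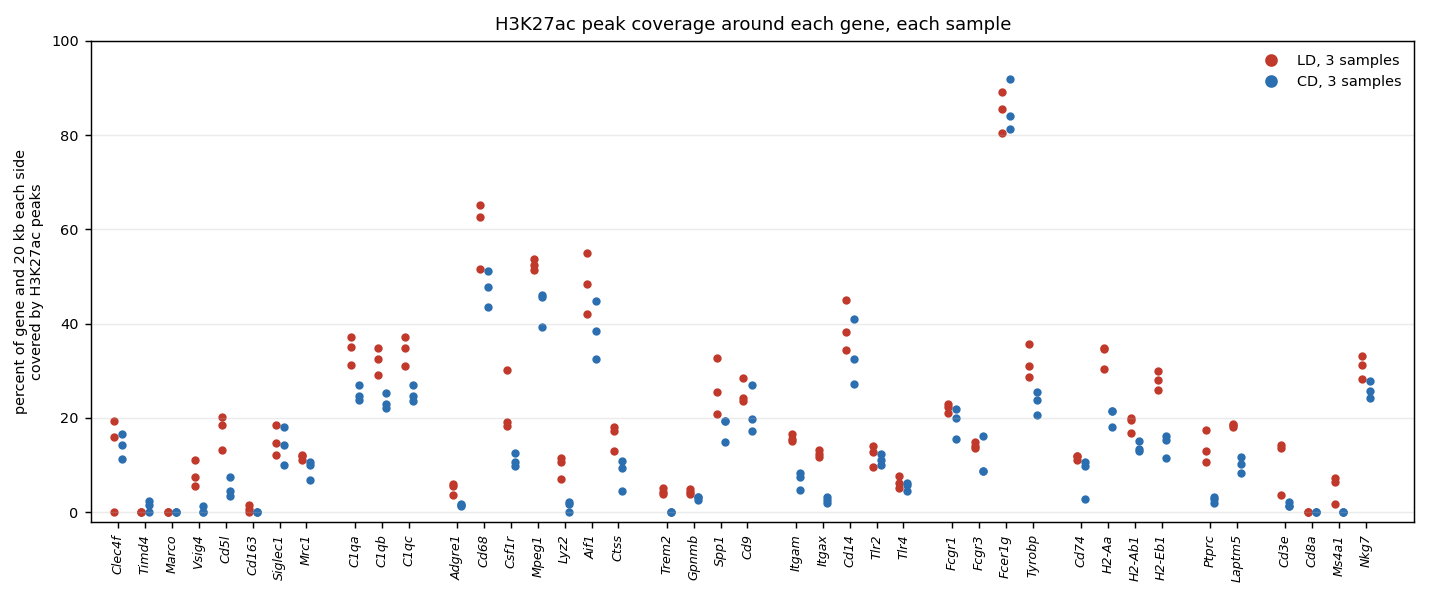
The percent of each gene and 20 kb to either side that H3K27ac peaks covered, in 3 LD samples (red) and 3 CD samples (blue), with genes in the order of their groups. The LD samples lie above all CD samples for 27 of the 41 genes, the 4 MHC class II genes and the 3 C1q chains among them, and Fcer1g has the highest coverage in both diets.

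H3K27ac peaks of the 6 samples were also merged into loci, of which 115 lay within 20 kb of the 41 genes. Of these, 11 (9.57%) had a peak in all 3 LD samples and in no CD sample, against 3.13% of all 50205 loci. None had a peak in all 3 CD samples and no LD sample, where the share was 0.757% of all loci. The 11 loci lay near 8 genes: 4 inside Ptprc, and 1 each at Trem2, Itgam and Mrc1 (inside the gene), at Csf1r and Lyz2 (with centres 6.0 and 19.2 kb before the start), and beyond the ends of Cd3e and Ms4a1. Of these 8 genes, Trem2, Itgam and Ptprc were called higher in RNA.

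Coverage and RNA did not always go together. Of the 20 genes called higher in RNA, 14 had all LD samples above in H3K27ac coverage, as had 13 of the 21 that were not called. Over all genes the shares were 43.5% of those called higher, 19.9% of those not called and 7.01% of those called lower. The C1q chains, Csf1r and Cd5l were higher in coverage in every LD sample without an RNA call, and Fcgr1, Fcgr3, Fcer1g, Tlr2 and Tlr4 were called in RNA with coverage that overlapped between diets. Cd8a, also called, had no peak.

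**Figure D5:**
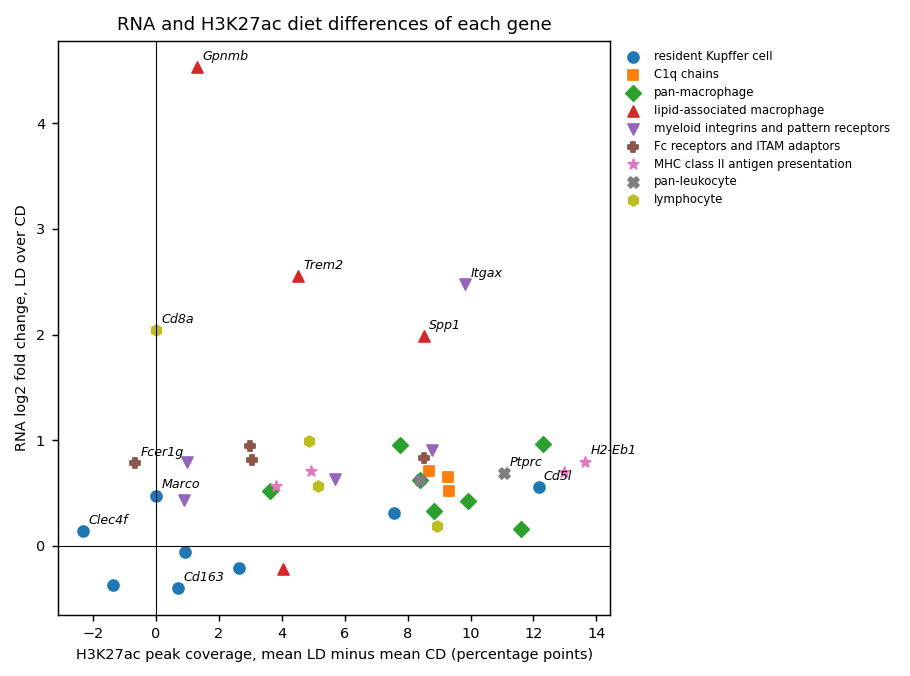
The difference in H3K27ac coverage (mean of 3 LD minus mean of 3 CD samples, in percentage points) on the horizontal axis and the RNA log2 fold change of LD over CD on the vertical axis, 1 point per gene, with the group given by shape and colour. Gpnmb has the highest RNA fold change with a coverage difference of 1.30 points, and H2-Eb1 the highest coverage difference, 13.7 points.

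Peaks of Hnf4α and of C/EBPα were each found in all 4 samples at a smaller share of these genes than of all genes. The share with no peak in any sample was larger than over all genes for Hnf4α and smaller for C/EBPα. A Hnf4α peak lay within 20 kb in all 4 samples for 15 of the 41 genes (36.6%) and for 53.7% of all genes, and in no sample for 16 and for 25.5% of all genes. For C/EBPα a peak was found in all 4 samples for 14 genes (34.1%, against 51.2% of all), and in none for 3 genes (7.32%, against 16.3%). With 2 samples per diet, no diet difference was tested. A C/EBPα peak was present in both CD samples and neither LD sample for 7 genes, Cd163, Siglec1, Mrc1, Trem2, Itgax, Tyrobp and Cd3e, against 4.14% of all genes, and the reverse held for Cd8a alone, against 1.13% of all genes. The C/EBPα lists held 38281 and 39310 peaks on LD and 41713 and 46371 on CD. For Hnf4α the same was seen for Gpnmb and Fcgr1 on CD (1.17% of all genes) and for no gene on LD (1.45% of all genes). In PCHi-C, which lists interactions of a promoter fragment with a CHiCAGO score of at least 5 within 1 Mb, 151203 interactions were listed on LD and 149798 on CD. Of the 41 genes, 21 had more interactions on LD, 6 had more on CD, 7 had equal numbers and 7 had none, where over all genes 29.7% had more on LD and 25.3% more on CD. Trem2 had 10 on LD and 6 on CD, Ctss 23 and 14, and Fcgr1 10 and 5, while Spp1 had 17 and Gpnmb 3 on each diet. Each of the neighbouring C1q chains had 5 on LD and 7 on CD, so they may not be separate cases among the 6 genes with more on CD. These lists were pooled over samples and carry no replicate error.

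Other genes of the same processes were counted from lists, to be read beside the 13.8% called higher and 11.1% called lower over all genes tested. Of 8 monocyte and neutrophil genes, 7 were tested and 4 were called higher on LD and none lower. Ccr2, the chemokine receptor that brings monocytes out of the marrow, had 3.22 ± 0.325 CPM on CD and 11.3 ± 3.19 CPM on LD (mean ± SD, n = 5), without overlap (edgeR, log2 fold change 1.81 ± 0.17, adjusted p = 2.01e-05). Cx3cr1, the receptor for fractalkine, differed by 2.46 ± 0.31 on the log2 scale (adjusted p = 0.000228) and Ly6c2, a surface marker of classical monocytes, 1.46 ± 0.24 (adjusted p = 0.000755). The fourth, S100a8, a calcium-binding protein of neutrophils and monocytes that is named here after its values were seen, had 1.49, 26.4, 1.43, 2.18 and 1.43 CPM in LD mice 1 to 5 and 0.414, 0.313, 0.559, 0.699 and 0.611 CPM in CD mice 1 to 5. LD mouse 2 alone stood far above the rest, and the value of 3.67 ± 1.13 (adjusted p = 0.0406) was 1.65 without it (adjusted p = 0.000647), while the call was lost without any single CD mouse (adjusted p up to 0.0921). Of 12 further lipid-associated and lysosomal genes, 9 were called higher and 2 lower. The 3 with the smallest adjusted p were Capg (1.32 ± 0.17), Fabp5 (-4.16 ± 0.46) and Plin2 (1.17 ± 0.17). Capg is an actin-capping protein, Fabp5 a fatty acid binding protein and Plin2 the lipid droplet coat protein, which hepatocytes also express. Fabp5 ran from 56.8 to 287.1 CPM on CD and from 7.66 to 12.9 CPM on LD. Which cells carried the RNA of the genes in this list was not tested. Of 8 genes of class II machinery and costimulation, 5 were called higher and none lower, led by Ciita, the master activator of class II genes (0.83 ± 0.13, adjusted p = 0.000542), H2-DMb1 (0.98 ± 0.21) and H2-DMa (0.70 ± 0.16), which load peptides.

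Of 10 ITAM and Fc signalling genes, 5 were called higher and none lower, among them the kinases Syk (0.76 ± 0.15, adjusted p = 0.00236) and Btk (0.78 ± 0.21) and the phosphatase Ptpn6 (0.51 ± 0.12). Of 10 macrophage transcription factors, 2 were called higher, Irf8 (0.66 ± 0.14, adjusted p = 0.00334) and Spi1, which encodes PU.1 (0.72 ± 0.23, adjusted p = 0.0303), and none lower. Of 8 further Kupffer cell surface and iron genes, 4 were called higher and none lower: the fatty acid transporter Cd36 (1.89 ± 0.20), which hepatocytes also express, the adhesion protein Vcam1 (0.97 ± 0.18), the haem oxygenase Hmox1 (0.82 ± 0.23) and the metal transporter Slc11a1 (0.58 ± 0.19, and 0.40 with adjusted p = 0.0602 without LD mouse 2). Of 14 further lymphocyte genes, 11 were tested, 2 were called higher (Cd79b, of the B cell receptor, 0.71 ± 0.22, and the granzyme Gzmb, 1.46 ± 0.47), and Cd4 was called lower (-1.26 ± 0.26, adjusted p = 0.00335). The median log2 fold changes of these lists were 1.81, 0.82, 0.64, 0.68, 0.18, 0.46 and 0.02 in the order given. With 1 mouse left out at a time, chosen for these lists after the data were seen, the genes called higher numbered 3 to 5, 9 to 10, 3 to 5, 3 to 5, 1 to 2, 2 to 4 and 0 to 3 in the same order. The calls lost in at least 1 of these fits include those of Spi1, Hmox1, Slc11a1, Cd79b and Gzmb, and without LD mouse 2 no further lymphocyte gene was called higher, with Cd79b at 0.49 (adjusted p = 0.0719) and Gzmb at 1.34 (0.0659). Genes called lower numbered 1 to 2 in the list of lipid-associated and lysosomal genes and 1 in that of lymphocyte genes. In the fit without LD mouse 2 there were also 1 in the Kupffer cell surface list, the iron exporter Slc40a1 (-0.30, adjusted p = 0.0225, against -0.21 and 0.151 with all mice), and 1 in the ITAM and Fc list, the inhibitory receptor Fcgr2b (-0.32, adjusted p = 0.0361, against -0.21 and 0.236), both named after their values were seen. The remaining lists had none called lower in these fits.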

How the data were processed

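Per the study's methods and the sample records, the authors mapped read pairs of stranded, ribosome-depleted libraries from separate animals to mm9 with STAR 2.5. They deposited counts per RefSeq gene from featureCounts 1.5.0-p1, and TPM values per gene. The TPM table also holds the authors' fold changes, FDR and status, which were not used. H3K27ac peaks were called per sample with SICER and deposited as positions without signal. Hnf4α and C/EBPα peaks were called per sample with HOMER, with a deposited normalised tag count as signal, of which only positions were used. Promoter interactions were deposited for pooled samples with a CHiCAGO score. Domain calls were not used.

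The 41 genes and the other lists were chosen with earlier results of these data known. Counts were filtered with filterByExpr, scaled by TMM and tested with edgeR 4.0.16 (quasi-likelihood test, robust, R 4.3.3) on 5 mice per diet, without covariates, with Benjamini-Hochberg adjustment over all 13494 genes. The script was tested on simulated data. CPM values are TMM-scaled and come from counts, while levels between genes are compared in TPM. Of the TPM columns, 1 could be tied to its diet but not to its mouse, so TPM is given as a range per diet. Values per mouse are given for the genes highest per length in each group and for those whose diets did not overlap, with others added after their values were seen, and for other lists at most 3 genes with the smallest adjusted p, with Slc11a1, S100a8, Slc40a1 and Fcgr2b added after their values were seen. Promoter sequences are from RefSeq (GRCm38.p6). Loci are H3K27ac peaks merged over samples and kept with a peak in at least 2. Intervals for fold changes are 95%. Alternatives were DESeq2 1.42.0, its size factors, other count filters, limma 3.58.1 on log2(TPM + 1) and log2(TPM + 0.1), a replicate block, other fold thresholds, windows of 5 and 50 kb, a merging distance of 1000 bp, another presence rule, and each replicate left out.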

Additional observations from a re-analysis of the deposited data

Results flagged for a closer look

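In each diet and gene, the gap between the most extreme mouse and the next was divided by the range of the 5 mice. The critical value for 5 samples is 0.71, which about 1 of 20 independent groups of normal values pass by chance. The groups here share the same mice and were taken on CPM without logs, so that rate does not apply to their count. It was passed in 9 of the 82 groups, and in 7 of these the mouse was LD mouse 2, the highest each time. These were Itgam, at a gap of 0.862 of the range (8.36 CPM, next 3.41), Tyrobp at 0.843 (54.0 and 28.3), Laptm5 at 0.795 (35.4 and 24.7), Fcer1g at 0.791 (17.9 and 10.4), Lyz2 at 0.788 (263.8 and 143.8), Ctss at 0.762 (127.3 and 84.2) and Cd68 at 0.747 (23.5 and 16.2). The calls of Itgam, Tyrobp, Laptm5, Fcer1g, Ctss and Cd68 were kept without that mouse, with the log2 fold change of Itgam at 0.475 in place of 0.90 and that of Tyrobp at 0.55 in place of 0.83. The other 2 were CD mouse 2, highest for Tlr4 at 0.846 (12.3 and 9.41 CPM) and for Spp1 at 0.81 (25.2 and 15.5 CPM). Spp1 kept its call without that mouse.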

How the results depend on the processing

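Of the 20 calls, 13 were kept in every alternative that tested the gene, among them those of Gpnmb, Trem2, Spp1, Itgax, H2-Aa, H2-Ab1 and H2-Eb1. The other 7 (Cd74, Fcer1g, Cd8a, Tyrobp, Itgam, Ptprc and Tlr4) were lost in at least 1, and none of the 41 genes was called lower in any. With at least 10 counts required in every library, Trem2 and Cd8a, of the 20, were not tested. Calls were gained by C1qb in 6 alternatives, Mpeg1 in 4, Ms4a1 in 3, and Nkg7 and Lyz2 in 1 each. The count of genes called higher was 13 with edgeR's glmTreat against a fold change of 1.2, where over all genes 919 were called higher and 459 lower against 1859 and 1498, and it was 16 to 21 with 1 mouse left out and 17 to 22 in the other alternatives without a block. Over all genes, limma called 2227 higher and 740 lower on log2(TPM + 1), and 2330 and 778 on log2(TPM + 0.1), where 22 of the 41 were called higher. With the replicate number as a block, 23 of the 41 were called higher, against 1818 higher and 1355 lower over all genes. Same-numbered mice of the 2 diets correlated at -0.078 to 0.191 in their deviations, so the numbers were not taken to pair the mice.

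Of the genes that were not called, the log2 fold change of Marco was -0.0059 on log2(TPM + 1) and -0.0458 on log2(TPM + 0.1). With 1 mouse left out at a time, it ran from -0.3747 (without LD mouse 2) to 0.8746 for Marco, from -0.1092 (without LD mouse 2) to 0.3185 for Clec4f, and from -0.2212 (without LD mouse 1, and -0.0074 without CD mouse 3) to 0.3561 for Cd3e. For Siglec1 it ran from -0.2048 to 0.0647, with 0.0271 without LD mouse 4, 0.0647 without LD mouse 5 and 0.0022 without CD mouse 2. The cause was not tested.

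Where a peak in 2 samples of a diet was enough, with none on the opposite diet, 26 loci near the 41 genes were found on LD and 2 on CD, against 8.64% and 2.85% of all loci. With 1 H3K27ac sample left out, loci with a peak in every sample left of 1 diet alone numbered 11 to 18 on LD and 0 to 1 on CD, against 4.12 to 6.03% and 1.01 to 1.65% of all loci. Genes with all LD samples above in coverage then numbered 27 to 31, and genes with all CD samples above 0 to 1, against 19.1 to 22.1% and 4.78 to 7.5% of all genes. The peak lists hold no signal, so a weaker peak under the authors' threshold counts as none. Cd3e, Cd8a and Nkg7 are limited by their low counts.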
